A study of Caenorhabditis elegans with 2 samples.

Results

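Of 29970 nuclear candidate regions for EOR-1 binding in Caenorhabditis elegans larvae, 646 had their summit between the promoters of genes transcribed away from each other. A region was taken when its summit lay 0 to 1000 bp upstream of an annotated transcript start of at least 1 plus-strand and at least 1 minus-strand protein-coding gene, in Ensembl release 115 of assembly WBcel235 (ce11). Signal values did not enter that rule, but the summits it used came from the same data, and earlier results of these data were known. A further 6900 regions lay upstream of starts on 1 strand only, and 22424 lay upstream of none within that distance.

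EOR-1 was mapped by chromatin immunoprecipitation and sequencing in whole L3 larvae, labelled as pooled male and female, of strain OP81. That strain has the genotype unc-119(ed3) III and carries the insertion wgIs81, a transgene for eor-1. The labels give the target as eGFP-eor-1 and the antibody as eor-1, and all tissues of the animals were mixed. There were 2 biological replicates of this 1 group and no second condition, so no test between conditions was possible. Candidate regions were called on each replicate and on both pooled, and an optimal list of 285 reproducible peaks was drawn from those lists, of which 256 were nuclear.

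EOR-1, a BTB-domain protein with zinc fingers, is a transcription factor that acts with Ras and Wnt signalling in worm development. Genes that point away from each other share the sequence between their starts, so a factor bound there sits upstream of both, and binding alone does not say which gene it acts on. Many worm transcripts are trans-spliced, and an annotated start then marks the splice site rather than the place where transcription began.

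The windows below run from 50 bp before to 50 bp after the summit, on the plus strand of ce11, with sequence from the RefSeq copy of WBcel235. The first 4 are shown because they lay at optimal peaks beside chaperone genes or at another of the strongest pairs and held GAANNTTC. That word is a pair of inverted GAA units as found in heat shock elements. The optimal peaks beside the chaperone genes cct-8, hsp-60 and dnj-12 did not hold GAANNTTC in this window and are not shown. Capitals mark GAANNTTC and, at dnj-13, also GAGAG read on the minus strand (CTCTC).
hsp-110/rpn-3, chrIII:8447104-8447204: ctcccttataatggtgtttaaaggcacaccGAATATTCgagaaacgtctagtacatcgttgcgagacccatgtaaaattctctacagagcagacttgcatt
F54D5.9/dnj-13, chrII:11545450-11545550: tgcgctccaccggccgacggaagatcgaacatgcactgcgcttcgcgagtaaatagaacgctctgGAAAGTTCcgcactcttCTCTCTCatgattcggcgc
C47E8.4/hsp-90, chrV:14685693-14685793: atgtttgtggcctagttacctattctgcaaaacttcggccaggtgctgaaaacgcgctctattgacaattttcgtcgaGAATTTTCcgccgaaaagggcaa
mbf-1/nse-4, chrIV:11480536-11480636: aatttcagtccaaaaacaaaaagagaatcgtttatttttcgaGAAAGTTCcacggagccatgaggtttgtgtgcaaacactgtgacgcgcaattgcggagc

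The next 4 windows are those of every optimal peak between divergent promoters that held the longer words recalled for EOR-1, GAGACGCAG or AGACGCAGA. In all 4 both words overlapped in a single run, read on the minus strand at hsp-16.2 and mrps-7. Capitals mark that match and, at hsp-16.2, also GAANNTTC. The GAGAG in the cup-14 window is left in lower case.
hsp-16.2/hsp-16.41, chrV:1805097-1805197: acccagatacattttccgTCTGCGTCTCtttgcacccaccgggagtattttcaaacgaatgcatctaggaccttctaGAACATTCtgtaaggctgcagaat
drr-2/set-16, chrIII:13643717-13643817: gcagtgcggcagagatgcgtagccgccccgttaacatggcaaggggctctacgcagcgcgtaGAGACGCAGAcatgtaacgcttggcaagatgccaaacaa
cup-14/ndub-8, chrII:13872623-13872723: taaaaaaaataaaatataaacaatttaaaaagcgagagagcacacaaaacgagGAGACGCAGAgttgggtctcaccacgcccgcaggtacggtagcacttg
mrps-7/Y57G11C.3, chrIV:14767847-14767947: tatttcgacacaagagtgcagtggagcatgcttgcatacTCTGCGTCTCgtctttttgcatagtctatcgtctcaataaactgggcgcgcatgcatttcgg

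The last window belongs to a strong peak between rps-23, which encodes a small-subunit ribosomal protein, and dpm-3. It held none of the words named so far and is shown for contrast. It did hold CTAGGCC read on the minus strand (GGCCTAG), a word described under other observations and left in lower case here.
rps-23/dpm-3, chrIV:12391334-12391434: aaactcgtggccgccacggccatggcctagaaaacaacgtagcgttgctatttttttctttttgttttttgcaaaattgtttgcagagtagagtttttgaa

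Regions between divergent promoters were called in the optimal list more often than candidate regions in general. Of the 646, 59 overlapped an optimal peak by 1 bp or more, which is 9.13% (exact 95% interval 7.03% to 11.6%). Over all nuclear candidate regions the share was 0.911%, and over regions upstream of starts on 1 strand it was 1.33% (92 of 6900; interval 1.08% to 1.63%). Regions are not replicates of a condition, so these intervals cover counting error only and no test was made.

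Of the 59, 53 were themselves the optimal peak, or 8.20% (6.21% to 10.6%) against 0.854% of all nuclear regions. The other 6 touched an optimal peak with its summit elsewhere and had pooled signals of 14.5 to 26.9. They lay at tag-266/tag-267, Y22D7AL.10/hsp-60, lev-9/mom-1, lgg-2/fic-1, lin-28/F02E9.7 and ntl-11/Y73F8A.27, and at the first 3 of these pairs the touched peak lay between the same genes. Read from the side of the optimal list, 53 of its 256 nuclear peaks, 20.7% (15.9% to 26.2%), lay between divergent promoters, as did 2.16% of all nuclear candidate regions. The 53 peaks fell in 52 of 3044 stretches of sequence that met the rule (1.71%), while 584 stretches (19.2%) held some candidate region.

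Signal was read from the deposited lists, whose scale is not stated, and read depth is not known. In the pooled list the median signal was 22.4 for the 646 regions, with quartiles of 17.1 and 31.5, against 19.4 over all nuclear candidates and 19.9 upstream of 1 strand. The difference sat mainly in the upper tail. The 90th percentile was 47.7 against 30.9 over all candidates and 32.2 upstream of 1 strand. The 53 optimal peaks ran from 53.4 to 279 with a median of 66.9, close to the median of 66.5 of the 87 optimal peaks upstream of 1 strand. Of the 587 regions outside the optimal list, none exceeded 52.0.

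Ranking each list by signal gave the same picture in both replicates. In the pooled list, regions between divergent promoters made up 8 of the first 50 nuclear regions (16.0%), 14 of ranks 51 to 100 (28.0%) and 31 of ranks 101 to 250 (20.7%). Their share was 8.40% at ranks 251 to 500 and 1.53% from rank 20001 on. In replicate 1 the first 3 bins held 18.0%, 22.0% and 16.7%, and the last 1.79%. In replicate 2 they held 14.0%, 26.0% and 19.3%, and the last 1.79%. Over all ranks the share was 2.16% in the pooled list, 2.28% in replicate 1 and 2.36% in replicate 2.

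**Figure D1:**
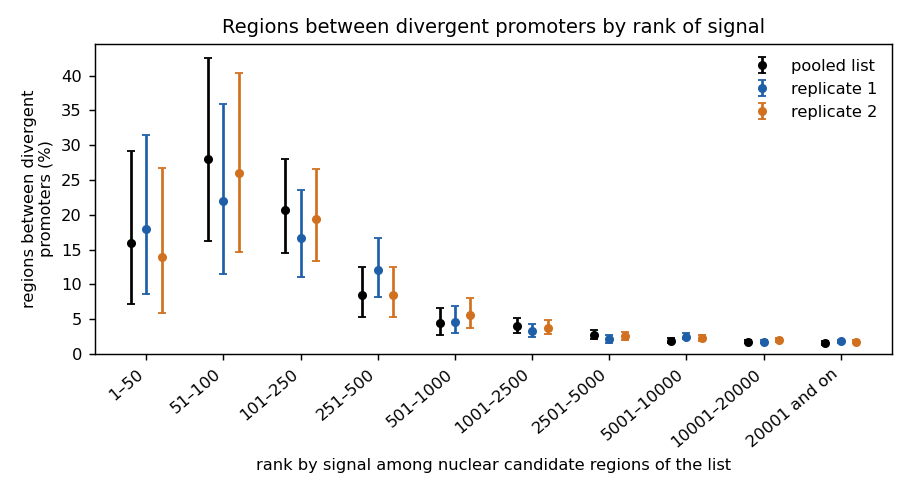
Share of nuclear candidate regions that lay between divergent promoters (y axis, percent) by rank of signal (x axis) in the pooled list and in each replicate list; points are shares and bars exact 95% intervals for counting error. In all 3 lists the share is 14.0% to 28.0% in the bins up to rank 250 and 1.53% to 1.79% from rank 20001 on.

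By an overlap of 1 bp or more, most of these regions recurred in the replicate lists, somewhat more often than candidates at large. A candidate region of replicate 1 overlapped 80.5% of the 646, against 73.7% of all nuclear regions, and one of replicate 2 overlapped 76.6%, against 70.3%. Both replicates overlapped 392 of them (60.7%, 56.8% to 64.5%), against 49.3%. When summits had to lie within 50 bp, 33.9% were found in both, against 21.6% of all nuclear regions. Replicate 1 alone overlapped 128, replicate 2 alone 103, and neither 23. The contrast was wider at the top of the lists. Among the 285 strongest regions of each replicate, 7.59% of the 646 overlapped one in replicate 1 (0.878% of all nuclear regions), 7.28% in replicate 2 (0.851%) and 4.02% in both (0.427%).

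Signal in the replicates is given for the strongest overlapping region of each. Over the 520 regions found in replicate 1 the median was 14.7, against 12.9 over all nuclear regions, and over the 495 found in replicate 2 it was 13.5, against 11.7. Across the 392 found in both, Spearman's rho between the replicates was 0.49 and Pearson's r of log2 signal 0.63. Across the 57 of them that overlapped an optimal peak these were 0.30 and 0.45. Both are descriptions over regions of the same 2 libraries, and no value over other regions is given. Of the 59, 26 overlapped a top region in both replicates. A further 15 did so in replicate 1 alone, 16 in replicate 2 alone and 2 in neither. Of the 53 that were themselves the optimal peak, 24 (45.3%) overlapped a top region in both. The share was similar at optimal peaks upstream of 1 strand (38 of 87, 43.7%) and at those with no start in reach (57 of 116, 49.1%). At tag-266/tag-267, Y22D7AL.10/hsp-60 and lev-9/mom-1 a region that only touched the peak also counts among the 59 and the 57. Its replicate values are the same as those of the peak.

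**Figure D2:**
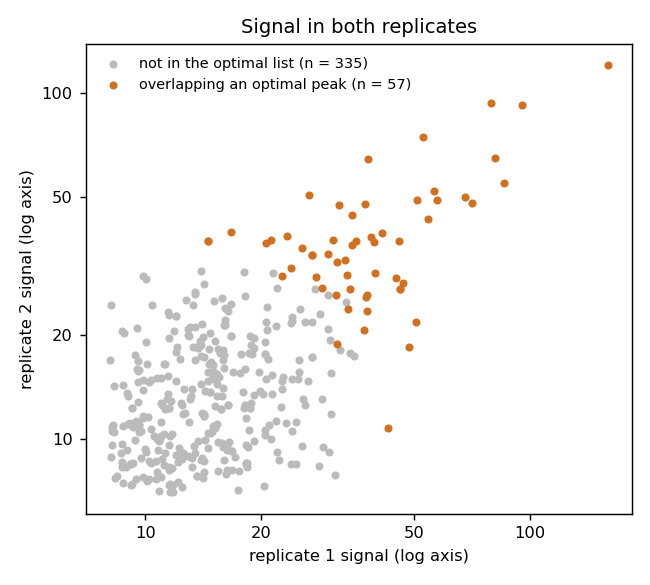
Signal in replicate 1 (x axis) against replicate 2 (y axis), both on log axes without a stated unit, for the 392 regions found in both lists. The 57 that overlapped an optimal peak lie toward the upper right, as that list was drawn from these values, and their values in either replicate still spread widely.

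Chaperone genes flanked the strongest of these peaks. The highest separated rpn-3, a gene for a regulatory-particle subunit of the proteasome, from the Hsp110 chaperone gene hsp-110. Its summit was 245 bp from the hsp-110 start and 199 bp from the rpn-3 start. Signal there was 279 in the pooled list, 159 in replicate 1 and 120.4 in replicate 2. Between F54D5.9 and the J-domain co-chaperone gene dnj-13 it was 189, 95.3 and 92.6. Both replicates placed these peaks within their first 16 nuclear regions.

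Between C47E8.4 and hsp-90, the cytosolic Hsp90 gene, the pooled signal was 169, with 79.1 in replicate 1 and 93.9 in replicate 2. The small heat shock genes hsp-16.2 and hsp-16.41 had starts only 221 bp apart, and the peak between them had 103, 57.2 and 48.9. Between cct-8, a subunit gene of the cytosolic chaperonin, and Y55F3AR.2 the values were 83.9, 37.3 and 47.9. At all of these pairs both replicates held a region among their 285 strongest.

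Of 60 chaperone genes in the annotation, 12 had a start in the window of a region between divergent promoters, and 8 of the 12 (66.7%, 34.9% to 90.1%) flanked one that overlapped an optimal peak. Over all 1181 genes with a start in such a window the figure was 111, or 9.40%. The gene lists were chosen with earlier results of these data known, so this comparison is a description only. The 8 share 7 pairs, since hsp-16.2 and hsp-16.41 face each other. The remaining 2 were hsp-60, the mitochondrial chaperonin gene, with 68.9 in the pooled list, 45.96 in replicate 1 and 27.1 in replicate 2, and dnj-12 with 60.5, 31.6 and 32.5. The 4 outside the optimal list were dnj-29 (43.6), dnj-1 (39.6), cct-5 (26.7) and dnj-16 (22.4).

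A few more pairs with protein-folding genes fell outside that list of names and were picked after their values were seen. Y22D7AL.10, opposite hsp-60, encodes the worm counterpart of the mitochondrial co-chaperonin Hsp10. The Hsp70 genes F44E5.4 and F44E5.5 faced each other around a peak of 65.6 (26.7 in replicate 1, 50.7 in replicate 2). They are close copies, and the handling of reads that match both is unknown. The peak between ahsa-1, which encodes an activator of Hsp90, and C01G10.7 had 66.9, with 48.6 in replicate 1 and 18.5 in replicate 2.

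By number of genes, cytosolic ribosomal protein genes came next. Of 81, 18 had a start in the window of a region, and 5 of the 18 (27.8%, 9.69% to 53.5%) flanked one in the optimal list. These were rps-20, facing ekl-4 (pooled 117, replicates 67.8 and 50.1), rps-23, facing dpm-3, a dolichol-phosphate mannosyltransferase subunit gene (115, 56.4 and 52.0), rpl-31, facing sac-2 (104, 37.9 and 64.6), rps-26, facing the cilia gene tmem-107 (80.0, 41.3 and 39.5), and rpl-12, facing lin-54 of the DREAM complex (53.9, 37.0 and 20.7). The other 13 had pooled signals from 24.3 to 43.6. They included both pairs in which ribosomal protein genes face each other, rps-10/rpl-24.1 with 31.9 and rps-14/rpl-36 with 33.7.

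Other lists held few such genes. All gene lists were gathered by gene name or name prefix, so genes under other names were not counted. The respiratory chain list took nuo-, cox-, cyc-, atp- and sdh names, and so left out ndub-8 at the optimal peak of cup-14/ndub-8. Of 4 proteasome genes, rpn-3 and the core subunit gene pbs-2 flanked an optimal peak. The latter faces eif-6, the only 1 of 8 translation factor genes named eif- or eef- to do so, at a signal of 55.4. The Wnt list had mom-1, needed for Wnt secretion, as its single flanking gene, at a peak of 59.5 shared with lev-9. The summit of that peak lay 738 bp from the mom-1 start and within 200 bp of a tRNA gene. The Ras-ERK list had mpk-1 as its single flanking gene, with 24.0 and outside the optimal list. None of 12 nuclear hormone receptor genes, 43 chemoreceptor genes, 5 collagen genes or 3 histone genes on the lists flanked an optimal peak. Nor did any of the listed 3 respiratory chain genes, 4 splicing genes, 2 mediator genes or 1 aminoacyl-tRNA synthetase gene. Taking 3 counts as the limit that a count of 0 allows, the share could be up to 6.98% for the chemoreceptor genes and higher for the smaller lists. Over all 1181 flanking genes the share was 9.40%, with an exact interval of 7.79% to 11.2%. The exact interval for the chemoreceptor genes reached 8.22%, which overlaps that range. Some chemoreceptor genes also face each other across the same region, so they are not separate counts. The lists in this paragraph are therefore too small to be told apart from all flanking genes.

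The other strong peaks lay beside genes of varied function. The peak between F01D4.5 and ced-5, a DOCK180-family gene for cell corpse engulfment, had 135 in the pooled list, 85.7 in replicate 1 and 55.1 in replicate 2. Between icd-1, the beta subunit gene of the nascent polypeptide-associated complex, and vps-32.1, an ESCRT-III gene, the values were 127, 52.9 and 74.5. Between gpap-1 and scpr-1 they were 126, 70.7 and 48.2. All 3 were among the strongest regions of both replicates.

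At E02H1.1/tag-124 the values were 102, 50.8 and 49.0, and at C01G10.10/C01G10.9, whose starts are only 89 bp apart, 101, 54.4 and 43.2. Pairs with pooled signals from 70.9 to 80.6 included mbf-1 and nse-4 (an SMC5/6 complex gene), vps-2 (ESCRT-III) and tiar-2 (an RNA-binding protein gene of the TIA family), Y50D4A.4 and wrb-1, F15D3.6 and timm-23 (mitochondrial import), and cdk-5 and kel-3. The same range held tim-1 (the timeless gene) and Y75B8A.23, Y38E10A.22 and Y38E10A.24, K01G5.10 and tasp-1, and F10E9.7 and F10E9.5. Across these 9 pairs the signal was 31.9 to 50.5 in replicate 1 and 21.7 to 47.6 in replicate 2. At Y38E10A.22/Y38E10A.24 a second optimal peak lay in the same stretch, with 53.7 in the pooled list, 42.8 in replicate 1 and 10.8 in replicate 2.

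At 2 of the 25 strongest pairs only replicate 2 held an overlapping region. The peak between drr-2 and set-16, an MLL-type histone H3 lysine methyltransferase gene, had 103 in the pooled list and 60.1 in replicate 2. The peak between T28F4.4 and pbrm-1, which encodes a polybromo protein of a SWI/SNF complex, had 70.2 and 24.3. Neither had a signal in replicate 1 to set beside these, and T28F4.4/pbrm-1 was among the strongest regions of neither replicate.

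**Figure D3:**
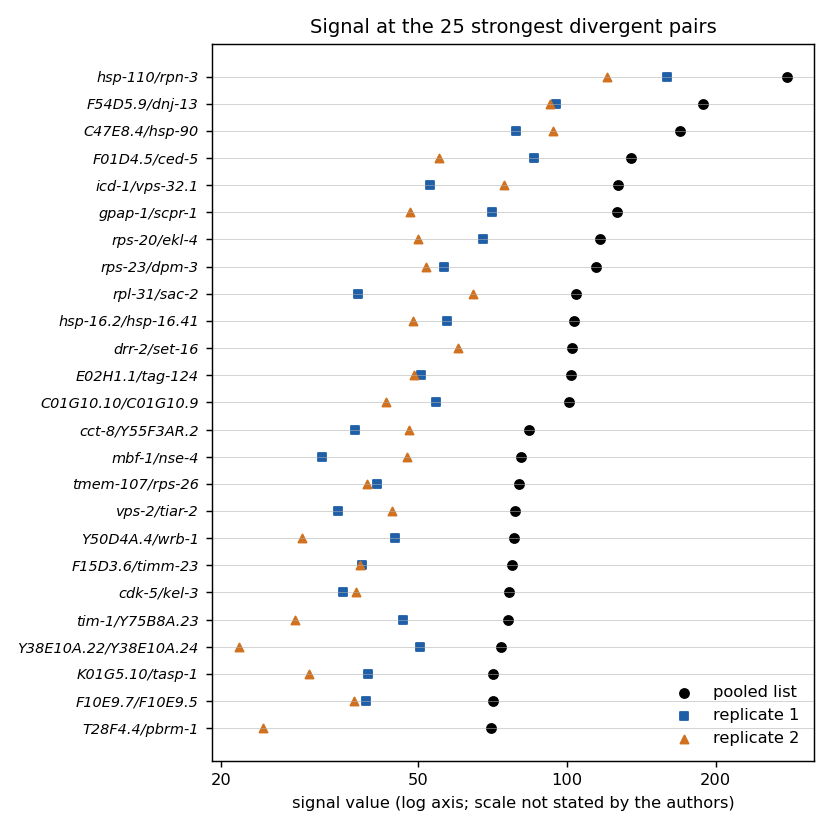
Signal (x axis, log scale, unit not stated) of the optimal peaks at the 25 divergent pairs of highest pooled signal (y axis), in the pooled list and in each replicate. Replicate values lie below the pooled ones throughout and the replicates swap order from pair to pair; drr-2/set-16 and T28F4.4/pbrm-1 have no point for replicate 1.

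Just below the optimal list came rsr-1/sri-5 (52.0, with 34.1 in replicate 1 and 17.8 in replicate 2), ZK632.10/ZK632.11 (51.8), F56C9.10/gsp-2 (51.1), mig-22/mtss-1 (50.9) and col-71/Y49F6B.2 (50.7). The weakest optimal peak between divergent promoters had 53.4, so signal ran on across the edge of the list without a wide gap. The −log10 q values met in the same way, from 1.46 up inside the list and at most 1.41 among the regions that overlapped none of its peaks.

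Starts lay closer together at the optimal peaks than over all the regions. The median distance between the starts was 792 bp over the 646 regions and 476 bp at the 53 optimal peaks. The median distance from summit to nearest start was 224 bp over all 646 and 181 bp at the 53. It was also shorter at optimal peaks upstream of 1 strand, with 269 bp at those 87 against 467 bp over all 6900. Where the starts were under 400 bp apart, 17.4% of regions (20 of 115; 11.0% to 25.6%) overlapped an optimal peak, against 4.93% (10 of 203; 2.39% to 8.87%) at 800 to 1199 bp. The share did not fall further with distance, and was 7.89% (9 of 114; 3.67% to 14.5%) at 1200 to 2000 bp. The nearer gene was on the minus strand at 24 of the 59 and on the plus strand at 35, against 331 and 314 of all 646.

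**Figure D4:**
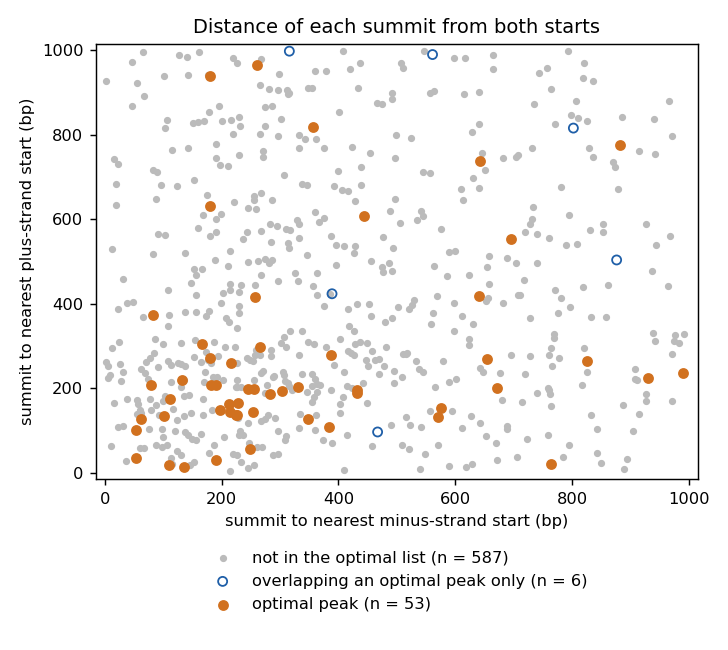
Distance from each summit to the nearest minus-strand start (x axis, bp) and to the nearest plus-strand start (y axis, bp) for the 646 regions. Optimal peaks gather in the lower left, with both starts within 300 bp at 26 of the 59 regions that overlapped an optimal peak and at 154 of all 646.

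At every distance from the nearest start, the share overlapping an optimal peak was above that of regions upstream of 1 strand. Within 99 bp of the nearest start it was 8.46% against 1.82%, at 100 to 199 bp 17.3% against 2.89%, and at 200 to 299 bp 7.43% against 1.70%. At 300 to 499 bp it was 3.65% (1.19% to 8.31%) against 1.45% (0.9005% to 2.21%), where the intervals overlap, and at 500 to 1000 bp 7.41% against 0.742%. At 108 of the 646 regions the summit also lay in the body of some protein-coding gene. With these left out, 9.67% overlapped an optimal peak, against 1.61% upstream of 1 strand.

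**Figure D5:**
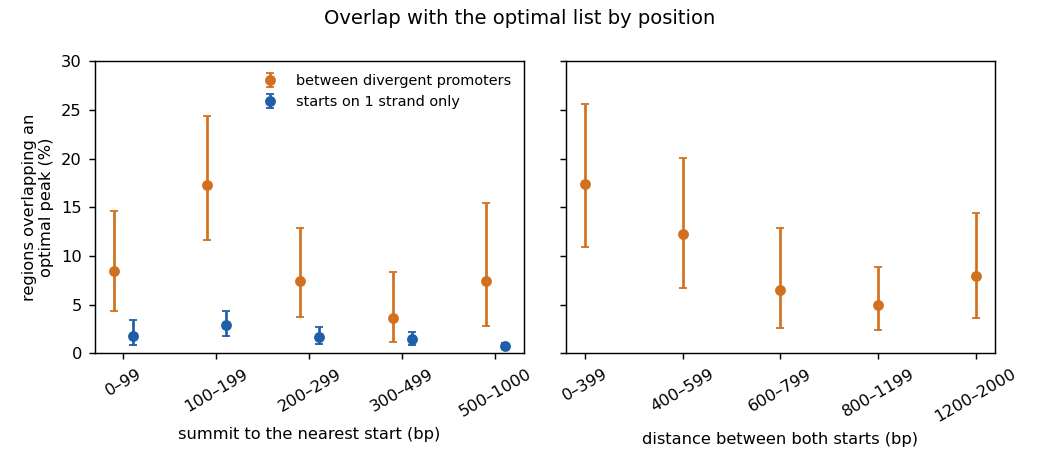
Share of regions overlapping an optimal peak (y axis, percent) by distance from the summit to the nearest start (left, bp) and by distance between both starts (right, bp); bars are exact 95% intervals for counting error. At the left every point for divergent promoters lies above that for starts on 1 strand, from 8.46% against 1.82% to 7.41% against 0.742%.

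All 6 nuclear chromosomes held some of the regions. The X chromosome had 40 of the 646, and 0.560% of its sequence met the rule against 1.98% of the autosomes. Per Mb of such sequence there were 403 candidate regions on X and 371 on autosomes, where the count ran from 221 on chromosome II to 476 on chromosome III. Optimal peaks among them numbered 10.1 per Mb on X, a single peak, and 31.8 on autosomes. Over all sequence the count was 3.78 per Mb on X and 2.29 on autosomes, the other order. On chromosome V 8 of 173 regions (4.62%, 2.02% to 8.91%) overlapped an optimal peak, the lowest share of any autosome, against 10.4% to 13.2% on the other 4. Chromosome V was also the lowest autosome for optimal peaks over all sequence, with 1.62 per Mb against 2.03 to 3.12.

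Sequence near the summits was compared as counts of words on both strands in the 101 bp windows. Either of the longer words GAGACGCAG and AGACGCAGA, which can overlap in a single match, occurred at 9 of 646 regions (1.39%), at 0.667% upstream of 1 strand and at 0.380% of all nuclear candidates. Within the optimal list one of them stood at 4 of 59 (6.78%, 1.88% to 16.5%) between divergent promoters, at 15 of 92 (16.3%, 9.42% to 25.5%) upstream of 1 strand and at 12 of 122 (9.84%) with no start in reach, with intervals that overlap. With a 200 bp upstream window the share between divergent promoters was 22.2% of 9, and with 2000 bp 12.8% of 78. The short word GAGAG, which can overlap the longer words only in part, stood at 13.0% of the 646 and 7.03% of all candidates, and at 30.5%, 34.8% and 30.3% of the same 3 groups.

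GAANNTTC stood at 8.98% of the 646 and at 8.77% of all nuclear candidates. In the optimal list it stood at 10 of 59 (16.9%, 8.44% to 29.0%) between divergent promoters, at 0 of 92 upstream of 1 strand, which allows a share of up to 3.26% by the same limit of 3 counts, and at 12 of 122 (9.84%) elsewhere. The 10 were hsp-110/rpn-3, F54D5.9/dnj-13, C47E8.4/hsp-90, rpl-31/sac-2, hsp-16.2/hsp-16.41, mbf-1/nse-4, vps-2/tiar-2, F10E9.7/F10E9.5, ahsa-1/C01G10.7 and F44E5.4/F44E5.5. TATAAA stood at 19.7% of the 646, at 20.2% of all candidates and at 13.6% of the 59. A matching word is a description of the window and not evidence that any factor was bound through it.

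Optimal peaks, between divergent promoters or elsewhere, were richer in G and C than candidate regions in general. The median GC content of the window was 42.6% at the 53 peaks between divergent promoters. It was 40.6% at the 87 optimal peaks upstream of 1 strand and 37.1% at the 116 with no start in reach. Over the 646 it was 27.7%, and over all nuclear candidates 25.7%. The part of base composition in the calls was not tested.

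Non-coding genes lay within 200 bp of a minority of these summits. They included a tRNA gene at the optimal peak of lev-9/mom-1. The snoRNA gene F39B2.14 lay near that of tmem-107/rps-26, and the snRNA gene sls-2.8 near that of tim-1/Y75B8A.23. Genes annotated as tRNA stood near 4 regions (0.619%, against 0.544% of all nuclear candidates), as snoRNA near 2 (0.310% against 0.220%) and as snRNA near 1 (0.155% against 0.0601%), and as rRNA or miRNA near none. Genes of class ncRNA stood near 30 (4.64% against 2.42%), piRNA genes near 18 (2.79% against 8.76%) and pseudogenes near 3 (0.464% against 1.66%).

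At the edge of the rule, the members nearest the 1000 bp limit were fipr-8/col-148 (999 bp, signal 14.5) and, all at 998 bp, his-72/rpt-6 (16.6), T26A8.4/pdtf-1 (32.5) and ntl-11/Y73F8A.27 (14.5). The closest left out were tsp-5/Y45F10B.3 (1001 bp, 15.5) and, both at 1004 bp, H04M03.11/glf-1 (33.3) and C02B8.7/C02B8.3 (17.5). Of these 7 regions ntl-11/Y73F8A.27 overlapped an optimal peak, whose summit lay elsewhere.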

How the data were processed

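The authors deposited candidate regions (peaks and background), made against a control for each replicate and for the pooled alignments, and an optimal list drawn from these, per the deposited README. Each region has a signal value, of unstated scale, and a −log10 q value as the authors deposited them. Libraries held fragments of 150 to 350 bp, per the labels. Not given in the sources used here are the aligner, the caller, their versions, read depth and thresholds. The lists in ce10 were left aside.

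Regions of the ce11 lists were matched by overlap of 1 bp or more. Transcript starts of 19973 protein-coding genes came from Ensembl release 115, and word searches used 50 bp to each side of the summit. A replicate's value is that of its strongest overlapping region. Shares have exact Clopper-Pearson 95% intervals for counting error. Only descriptions were made, with no test. Scripts ran under matplotlib 3.10.9, SciPy 1.17.1, pandas 2.3.3, numpy 2.4.6 and Python 3.11.15, and the annotation step was tested on simulated regions with known positions.

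The genes named are those at the 25 optimal regions of highest pooled signal, at the 5 strongest regions outside the optimal list, up to 4 per gene list with an optimal peak, and at the 2 regions to each side of the distance limit, with ties. Others, including the further ribosomal and chaperone genes, were chosen after their values were seen. The regions and gene lists were chosen with earlier results of these data known. Alternatives were other windows, start definitions, overlap rules, word windows and single replicates. Of these, the same-region, gene-body and autosome alternatives were added after seeing the data.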

Additional observations from a re-analysis of the deposited data

How the results depend on the processing

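Of 56 combinations of a main value with an alternative, 34 stayed within the counting interval (or within 1.5 times, for the number of regions) and 22 moved. With an upstream window of 500 bp there were 290 regions, of which 13.1% overlapped an optimal peak and 65.5% a region in both replicates, with a median signal of 25.8. With 200 bp there were 57, with 15.8%, 64.9% and 27.1, and the longer EOR-1 words stood at 5.26% of them and at 22.2% of the 9 in the optimal list. With 2000 bp there were 1549, with 5.04%, 53.8% and 20.6. Upstream of 1 strand the optimal share was 2.10%, 3.99% and 0.919% in those windows. Overlap of at least 50% of the region gave 50.3% found in both replicates (39.3% of all candidates), and summits within 50 bp gave 33.9% (21.6%). The longer EOR-1 words stood within 100 bp of the summit at 2.63% of regions, and no share over all candidates is given for that wider window. Against the stronger 50% of the optimal list 4.64% overlapped, and 0.461% of all candidates did.

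With 1 replicate left out, the other's own list and its 285 strongest regions took the place of the pooled and optimal lists. It held 683 to 706 regions, 6.73% to 6.94% of them among the strongest, with a median signal of 11.9 to 13.5. Over all nuclear regions of those lists the share was 0.854% to 0.861% and the median 10.6 to 11.9. The share with a partner in the other lists was 60.3% to 62.1%. The longer words stood at 1.42% to 1.76% of regions and at 4.35% to 8.16% of the strongest. For the partner and word shares no value over all regions of those lists is given. Why these values moved was not tested. No paired analysis was possible because there was 1 group.

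Read depth is not known, so single signal values carry no error. Annotated starts can lie away from the true ones, and a shared stretch does not assign a peak to either gene.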

Other observations

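A word search made after the sequences were read found CTAGGCC, on either strand, within 50 bp of the summit at 10 of the 53 optimal peaks between divergent promoters (18.9%). It stood at 4 of 87 optimal peaks upstream of 1 strand (4.60%), at 1 of 116 optimal peaks with no start in reach (0.862%), at 8 of the 587 other regions between divergent promoters (1.36%) and at 0.347% of all nuclear candidates. The word was picked because it recurred in these windows, so its counts are a description and no test was made. The 10 pairs were C47E8.4/hsp-90, F01D4.5/ced-5, rps-23/dpm-3, C01G10.10/C01G10.9, Y38E10A.22/Y38E10A.24, K01G5.10/tasp-1, ahsa-1/C01G10.7, sws-1/mrps-35, Y75B8A.24/Y75B8A.25 and dagl-2/ppm-1.G.

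The window at dagl-2/ppm-1.G, which held the word at a pair of places, and those at F01D4.5/ced-5 and sws-1/mrps-35 are shown on the plus strand of ce11, with sequence from the RefSeq copy of WBcel235 and the word in capitals (GGCCTAG on the other strand).
dagl-2/ppm-1.G, chrIII:783446-783546: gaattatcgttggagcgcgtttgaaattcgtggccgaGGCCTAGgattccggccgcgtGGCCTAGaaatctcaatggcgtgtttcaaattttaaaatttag
F01D4.5/ced-5, chrIV:10483862-10483962: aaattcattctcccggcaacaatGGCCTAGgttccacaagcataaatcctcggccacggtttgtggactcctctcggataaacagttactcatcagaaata
sws-1/mrps-35, chrV:18981154-18981254: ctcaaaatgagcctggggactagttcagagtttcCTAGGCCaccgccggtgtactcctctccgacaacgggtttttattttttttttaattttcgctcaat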
